A study of Homo sapiens with 6 samples.

Results

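The urea cycle genes were taken as the 9 rows of the expression table named CPS1, OTC, ASS1, ASL, ARG1, ARG2, NAGS, SLC25A15 and SLC25A13, out of 19974 annotated human genes. The rule is by name and uses no measured value. RNA was sequenced from Huh7, an established human hepatocellular carcinoma line labelled as wild type (WT). Huh7 P is the untreated parental line, with 3 samples. Huh7 LR is the lenvatinib-resistant line derived from it, with 3 samples, after exposure to 1 to 20 μM lenvatinib for 10 months. Lenvatinib, a drug against liver cancer, blocks kinases such as the VEGF and FGF receptors. The resistant cells are 1 derived line that was kept in lenvatinib-containing medium, so resistance, clonal drift and the presence of the drug cannot be told apart. The 3 samples of a line were described as independent and came from cultures of that 1 line.

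The urea cycle turns ammonia into urea and in the liver runs mainly in periportal hepatocytes. In the mitochondrion, NAGS makes N-acetylglutamate, the obligatory activator of CPS1, and CPS1 joins ammonia and bicarbonate into carbamoyl phosphate. OTC transfers the carbamoyl group to ornithine to give citrulline. In the cytosol, ASS1 couples citrulline with aspartate, ASL splits the product into arginine and fumarate, and ARG1 releases urea and ornithine from arginine. ARG2 is the mitochondrial arginase of many other tissues. The carrier SLC25A15 exchanges ornithine and citrulline across the inner mitochondrial membrane, and SLC25A13 (citrin) exports the aspartate that ASS1 uses. Hepatoma lines commonly hold only part of the cycle.

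CPS1 and NAGS, which form the entry step, were both lower in Huh7 LR. CPS1 fell by 34.7% and NAGS fell by 37.3%, while ASL was higher by 24.6%. ASS1, ARG1, ARG2, SLC25A15 and SLC25A13 did not pass the test, and OTC was at or near 0 in every library and was not tested. By edgeR's quasi-likelihood test with an adjusted p below 0.05, 1 of the 8 tested genes was higher and 2 were lower. Over all 17531 genes and loci tested, 23.3% were higher and 22.4% were lower by the same rule. The share of members called was therefore near the background. None of the 8 passed the study's stricter limit of a more than 2-fold change at p under 0.001, read here as an adjusted p, which 4.43% of all features passed upwards and 1.78% downwards. The members' median log2 fold change was 0.04, beside 0.0046 over all features tested.

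Promoter sequences are shown for the members that changed, where the start is single and a stretch free of annotated exons lay before it, and for OTC as the member with no read in 5 of 6 libraries. They come from RefSeq on GRCh38.p14, 5′ to 3′ on the strand of the gene. Bases that lie in an exon of GENCODE 29 were trimmed. Capitals mark matches to the 8 motifs searched on both strands. The stretches are chr17:44004470-44004545 for NAGS, chr7:66075569-66075797 for ASL and chrX:38352354-38352544 for OTC, all on the plus strand.
NAGS: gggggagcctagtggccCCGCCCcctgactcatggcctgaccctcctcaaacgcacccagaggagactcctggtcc
ASL: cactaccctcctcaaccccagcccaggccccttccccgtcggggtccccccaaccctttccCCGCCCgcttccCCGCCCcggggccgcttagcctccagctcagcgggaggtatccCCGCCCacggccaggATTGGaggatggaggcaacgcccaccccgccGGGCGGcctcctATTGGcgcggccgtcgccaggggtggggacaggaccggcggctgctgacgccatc
OTC: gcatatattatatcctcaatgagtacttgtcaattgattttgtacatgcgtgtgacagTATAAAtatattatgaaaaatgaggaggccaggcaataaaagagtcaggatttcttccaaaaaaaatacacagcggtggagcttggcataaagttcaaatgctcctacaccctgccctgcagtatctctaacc
No CPS1 stretch is shown. CPS1 has 3 RefSeq starts in the table used, the gene counts do not tell which start was used, and of the 250 bases before each, 206, 167 and 0 lie in annotated exons, with all 3 starts inside the annotated gene.

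All 9 members matched the RefSeq promoter table, through 12 starts. GC content over the 250 bases before the start was 65.6% for NAGS, 74.0% for ASL, 72.4% for ARG2, 79.6% for SLC25A15, 73.6% for SLC25A13, and 68.4% and 78.8% for the 2 starts of ASS1. It was 40.4% for OTC, 37.6% for ARG1 and between 33.6% and 48.4% for CPS1. The median of all 35116 promoters was 58%, with NAGS above it and each start of CPS1 below it. From 0 to 206 of the 250 bases of a window lie in annotated exons. A link between GC content and the changes was not tested.

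The GC box letters GGGCGG occurred before the starts of ASS1, ASL, ARG2, NAGS, SLC25A15 and SLC25A13, and in 42.6% of all promoters. In NAGS there were 5 such matches in the 250 bases and in ASL 4. For NAGS, 155 of the 250 bases lie in annotated exons, and most of its matches are not wholly within the stretch shown. The CCAAT box letters (CCAAT) occurred in ASL, ARG2, SLC25A13 and 1 start of CPS1, and in 32.0% of all promoters. The TATA box letters (TATAAA) were found in OTC and ARG1, and in 10.7% of all promoters. In ARG1 the match lies in an annotated exon. The HNF4 core CAAAGT was found in OTC, where the match lies in the part trimmed as exon, and in 10.3% of all promoters. The cyclic AMP response core TGACGT was found in ARG2 and in 7.10% of all promoters. The C/EBP letters TTGCNNAA, the HNF1 letters GTTAAT and the forkhead letters TGTTTAC were in no member's window, and in 9.05%, 6.23% and 2.98% of all promoters. Such matches describe letters only.

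Read totals per library ran from 62738937 to 71427573 in Huh7 P and from 63233655 to 70768720 in Huh7 LR. A count of 0 therefore allows a level of up to 0.0418 to 0.0486 CPM (reads scaled to the library total after TMM normalisation), taken as 3 counts and covering counting error only. Across genes, the Spearman correlation was 0.991 to 0.995 between libraries of a line and 0.974 to 0.976 between lines. Of 8 hepatocyte markers, 4 were higher in Huh7 LR and none was lower, beside 23.3% and 22.4% of all features tested. Their summed level was 43486 to 52579 CPM in Huh7 P and 54973 to 58014 CPM in Huh7 LR. ALB rose most, from a mean of 12948 CPM in Huh7 P to 21559 CPM in Huh7 LR. The mean of AFP went from 22992 to 19613 CPM. TF lost its call by limma, and AFP was called lower with the replicate block and without Huh7 P 1. Markers of other cell types were summed in the same way. The 6 fibroblast markers came to 6.89 to 8.23 CPM in Huh7 P and 6.08 to 9.66 CPM in Huh7 LR, with COL1A1 higher, PDGFRA lower and DCN at 0 in all 6 libraries. The 6 leukocyte markers summed to 62.4 to 67.7 CPM in Huh7 P and 10.1 to 14.03 CPM in Huh7 LR. That difference was carried by LYZ, while TYROBP and HLA-DRA were at 0. The 4 endothelial markers summed to 38.8 to 47.5 CPM in the parental and 65.0 to 71.2 CPM in the resistant line, with PECAM1 higher and KDR and CDH5 at 0. VWF was called higher on 0, 0 and 8 reads against 19 to 26. It was not called by limma, or without Huh7 P 1, Huh7 P 2, Huh7 LR 2 or Huh7 LR 3. Its reads were too few to be tested with at least 10 counts in every library. The 4 cholangiocyte markers summed to 415 to 428 CPM in the parental and 416 to 426 CPM in the resistant line, with KRT19 lower and EPCAM higher. The part of these differences in the results for the urea cycle genes was not tested. In a bulk library, fewer cells that express a gene and less of its RNA in each cell cannot be told apart.

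CPS1 (ENSG00000021826, chromosome 2, 210477682 to 210679107, plus strand, GRCh38) was measured with 3320 to 6241 reads a library. Its level scaled by library size was 86.9, 86.4 and 84.8 CPM in Huh7 P 1, 2 and 3, and 60.0, 47.4 and 61.2 CPM in Huh7 LR 1, 2 and 3. The lines did not overlap, and Huh7 LR 2 was the lowest library. The mean went from 86.0 ± 1.12 CPM to 56.2 ± 7.64 CPM (SD, n = 3 each). In edgeR's fit the log2 fold change was -0.62 (SE 0.093, 95% interval -0.82 to -0.41, adjusted p = 3.21e-04).

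NAGS (ENSG00000161653, chromosome 17, 44004546 to 44009063, plus strand) was measured with 713 to 1251 reads. It was at 16.2, 18.5 and 19.1 CPM in Huh7 P and at 12.2, 10.2 and 11.4 CPM in Huh7 LR. The lines did not overlap, and the lowest library was again Huh7 LR 2. The log2 fold change was -0.67 (SE 0.11, 95% interval -0.91 to -0.44, edgeR adjusted p = 4.17e-04), from 17.95 ± 1.54 CPM to 11.3 ± 1.03 CPM (SD, n = 3 each). The intervals of CPS1 and NAGS overlap, and the difference between the 2 was not tested.

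OTC (ENSG00000036473, chromosome X, 38352545 to 38421450, plus strand) had 0, 10 and 0 reads in Huh7 P 1, 2 and 3 and 0 reads in each Huh7 LR library. The 10 reads of Huh7 P 2 correspond to 0.162 CPM. The third mitochondrial enzyme of the cycle was thus not detectable at this depth in 5 of 6 libraries, and no fold change is given.

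ASS1 (ENSG00000130707, chromosome 9, 130444929 to 130501274, plus strand) was at 84.0, 86.2 and 90.4 CPM in Huh7 P and at 112, 84.9 and 92.3 CPM in Huh7 LR 1, 2 and 3. Huh7 LR 1 stood above the rest, while Huh7 LR 2 lay inside the parental range. The log2 fold change was 0.15 (SE 0.097, 95% interval -0.06 to 0.36, edgeR adjusted p = 0.230). Without Huh7 LR 2 it was 0.24 (edgeR adjusted p = 0.0420), and without Huh7 LR 1 it was 0.028 (edgeR adjusted p = 0.784). The estimate and its call thus depended on single libraries. The annotation holds 11 pseudogenes named after ASS1, none of them in the table, and how reads shared with them were assigned is not given in the sources used here.

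ASL (ENSG00000126522, chromosome 7, 66075798 to 66093558, plus strand) was at 128, 133 and 133 CPM in Huh7 P and at 144, 181 and 166 CPM in Huh7 LR. The lines did not overlap, and Huh7 LR 2, the lowest library for CPS1 and NAGS, was the highest for ASL. The log2 fold change was 0.32 (SE 0.086, 95% interval 0.13 to 0.51, edgeR adjusted p = 0.0108). A second gene on the same strand, AC068533.4, covers 17.6% of the ASL exon bases and had 10 to 16 reads in Huh7 P and 44 to 52 in Huh7 LR. With its reads joined to ASL, a choice made after seeing the data, the log2 fold change of ASL was still 0.32 (adjusted p = 0.0102).

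Both arginases were low and neither passed the test. ARG1 (ENSG00000118520, chromosome 6, 131573144 to 131584332, plus strand) was at 4.40, 4.59 and 4.97 CPM in Huh7 P and at 5.08, 4.94 and 5.95 CPM in Huh7 LR, with overlapping lines. Its log2 fold change was 0.19 (SE 0.13, 95% interval -0.10 to 0.49, edgeR adjusted p = 0.263). ARG2 (ENSG00000081181, chromosome 14, 67619798 to 67651720, plus strand) was at 3.19, 3.86 and 4.42 CPM in Huh7 P and at 4.49, 4.07 and 3.52 CPM in Huh7 LR. The estimated log2 fold change was 0.08 (SE 0.16, 95% interval -0.29 to 0.44, edgeR adjusted p = 0.739). VTI1B on the opposite strand covers 37.4% of the ARG2 exon bases, had 4671 to 5450 reads, and its reads cannot be told apart from those of ARG2 there because the library kit does not mark strand.

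Neither mitochondrial carrier passed the test. SLC25A15 (ENSG00000102743, chromosome 13, 40789412 to 40810111, plus strand) was at 19.2, 18.4 and 17.4 CPM in Huh7 P and at 16.9, 18.4 and 17.7 CPM in Huh7 LR. The estimated log2 fold change was -0.05 (SE 0.086, 95% interval -0.24 to 0.13, edgeR adjusted p = 0.640), and 5 pseudogenes named after it are absent from the table. SLC25A13 (ENSG00000004864, chromosome 7, 96120220 to 96322147, minus strand) was at 114, 116 and 115 CPM in Huh7 P and at 113, 120 and 111 CPM in Huh7 LR. The estimated log2 fold change was -0.0009 (SE 0.065, 95% interval -0.14 to 0.14, edgeR adjusted p = 0.993), the narrowest interval of the 8. For both carriers the intervals leave room only for changes smaller than those of CPS1 and NAGS.

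**Figure D1:**
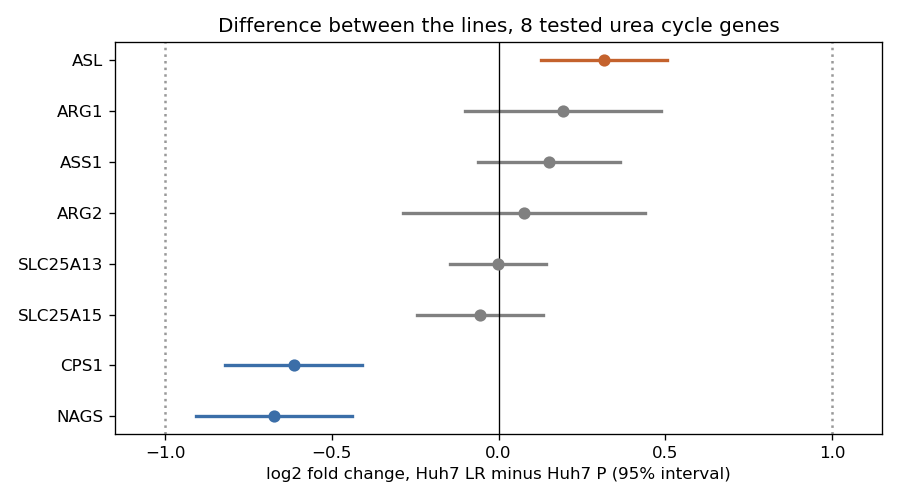
Log2 fold change of the 8 tested urea cycle genes (Huh7 LR minus Huh7 P, x axis), with points for edgeR's estimate and lines for its 95% interval. Blue marks genes lower and orange the gene higher at an adjusted p under 0.05, grey marks genes that did not pass, and dotted lines mark 2-fold. NAGS (-0.67) and CPS1 (-0.62) lie left of 0, ASL (0.32) lies right of 0, and no point reaches 2-fold.

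In 3 of the 8 tested genes (CPS1, NAGS and ASL) the CPM of the lines did not overlap, while 55.9% of all features tested were separated in this way. Whether the members differ from the rest of the table in this respect was not tested.

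Levels of different genes were set side by side as FPKM, a value scaled by both gene length and read total. In Huh7 P the order of mean FPKM was ASL (62.7), ASS1 (51.3), SLC25A13 (33.7), CPS1 (13.6), SLC25A15 (10.6), NAGS (7.55), ARG1 (2.79), ARG2 (1.71) and OTC (0.0295). In Huh7 LR it was ASL (78.2), ASS1 (58.3), SLC25A13 (34.3), SLC25A15 (10.4), CPS1 (9.07), NAGS (4.83), ARG1 (3.25), ARG2 (1.84) and OTC (0). SLC25A15 and CPS1 exchanged places. No neighbours in either order overlapped over their 3 libraries. The argininosuccinate enzymes in the middle of the cycle thus stood well above the enzymes before and after them in both lines. Summed over the 9 genes, FPKM was 183, 184 and 185 in the parental libraries and 202, 199.8 and 199 in the resistant ones, most of it from ASL and ASS1.

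**Figure D2:**
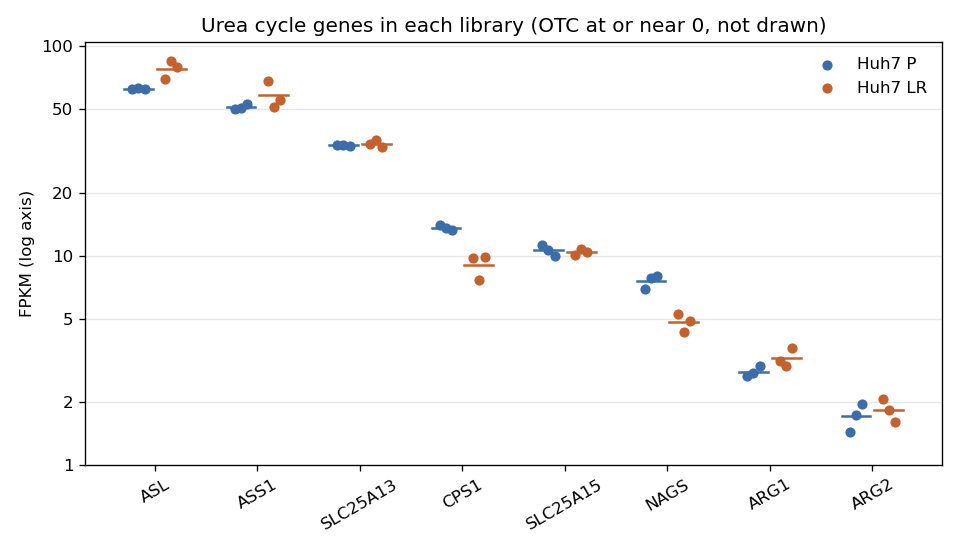
FPKM of 8 urea cycle genes (log axis), with 1 point per library and a short line at the mean of the 3 libraries of each line (blue Huh7 P, orange Huh7 LR). CPS1 (13.6 to 9.07) and NAGS (7.55 to 4.83) are separated downwards and ASL (62.7 to 78.2) upwards, and the Huh7 LR points spread more widely than the Huh7 P points for ASL, ASS1 and CPS1.

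Within a library, 4 log2 ratios of FPKM were compared between the lines. None passed the two-sided exact permutation test, and 3 against 3 libraries cannot give a p below 0.1. The adjusted p over the 4 ratios was 0.7 for each. ARG2 over ARG1 was -0.71 ± 0.15 in Huh7 P and -0.82 ± 0.31 in Huh7 LR (SD, n = 3 each, exact p = 0.7). ASS1 over ASL was -0.29 ± 0.043 in Huh7 P. In Huh7 LR it was -0.03, -0.73 and -0.52, so that the balance of these consecutive enzymes varied widely among the resistant samples (exact p = 0.6). CPS1 was also set against CAD, whose first domain makes carbamoyl phosphate for pyrimidines in the cytosol. That ratio was -0.26 ± 0.038 in Huh7 P and -0.16 ± 0.31 in Huh7 LR (SD, n = 3 each, exact p = 0.7), both genes being lower in Huh7 LR. SLC25A13 over SLC25A12, the other aspartate carrier, was 4.31 ± 0.015 in Huh7 P and 4.67 ± 0.48 in Huh7 LR (SD, n = 3 each, exact p = 0.4).

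**Figure D3:**
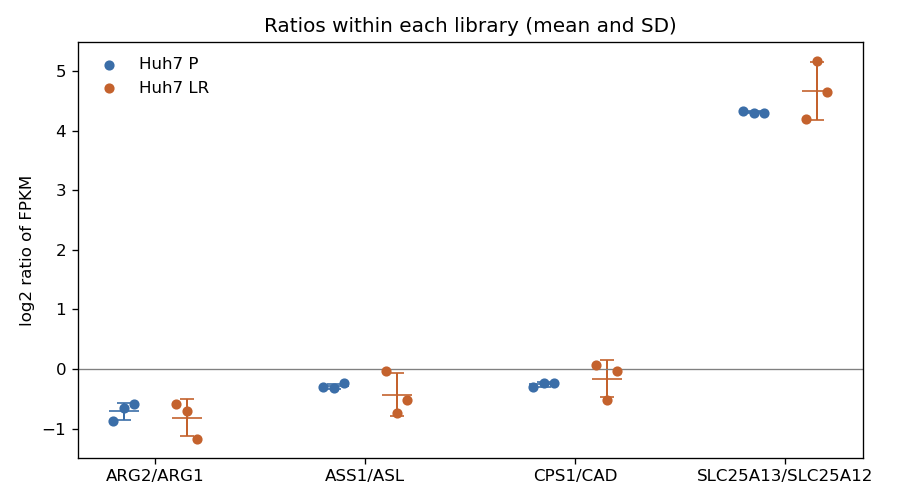
Log2 ratio of FPKM within each library for 4 gene pairs, with 1 point per library and the mean and SD of the 3 libraries of each line (blue Huh7 P, orange Huh7 LR). The Huh7 LR points straddle the Huh7 P points in each pair, and SLC25A13 stands above SLC25A12 by 4.31 in Huh7 P.

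Of 14 genes that feed ammonia, glutamate and aspartate into the cycle, 13 were tested. Among these, 4 were higher, 1 was lower and 8 did not pass, with a median log2 fold change of -0.02. Over all features tested, 23.3% were higher and 22.4% were lower. GLUD1, the glutamate dehydrogenase that releases ammonia in the mitochondrion, was at 321, 336 and 332 CPM in Huh7 P and at 425, 531 and 497 CPM in Huh7 LR, which is 0.56 on the log2 scale (SE 0.085, edgeR adjusted p = 3.43e-04). Its near-identical intronless copy GLUD2 had 0.54 and may share its reads. GPT, cytosolic alanine aminotransferase, had 0.78, and SLC25A18, a mitochondrial glutamate carrier, had 0.85. GOT2, the mitochondrial aspartate aminotransferase, was the gene that fell, from 184 ± 3.73 CPM to 139 ± 10.6 CPM (SD, n = 3 each). GLUL, glutamine synthetase and the alternative route of ammonia disposal, was at 499 ± 18.02 CPM and 482 ± 14.1 CPM (SD, n = 3 each) and did not pass.

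Of 21 genes that use arginine and ornithine, 19 were tested. Among these, 5 were higher, 8 were lower and 6 did not pass, with a median of -0.17. The table as a whole was also called in both directions (23.3% of all features tested higher, 22.4% lower), and the list was not tested against it. OAT, ornithine aminotransferase, was at 103, 113 and 109 CPM in Huh7 P and at 206, 273 and 281 CPM in Huh7 LR. Its log2 fold change of 1.23 (SE 0.11, edgeR adjusted p = 8.05e-06) passed the stricter limit. PYCR1, which makes proline from the product of OAT, was at 68.6, 68.7 and 73.6 CPM in Huh7 P and at 24.7, 20.7 and 19.0 CPM in Huh7 LR. Its log2 fold change of -1.71 (SE 0.097, edgeR adjusted p = 4.95e-07) passed the stricter limit too. Neither OAT nor PYCR1 overlapped between the lines. GATM, which takes arginine into creatine synthesis, had 0.85, and AGMAT, named as agmatinase, had -0.94. Of the listed genes that act on polyamines, the synthesis enzymes ODC1 (-0.80), SRM (-0.71), SMS (-0.37) and AMD1 (-0.41) were lower. SAT1, which acetylates polyamines for breakdown or export, was higher (0.56), as was the antizyme gene OAZ2 (0.33). The antizyme gene OAZ1 (0.0089) and the antizyme inhibitor gene AZIN1 (-0.11) did not pass. These genes lay outside the rule for named genes, were grouped after their values were seen, and were not tested as a group.

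Of 11 carriers of basic amino acids and aspartate, 9 were tested, 2 were higher, 1 was lower and 6 did not pass, with a median of 0.03. The shares of all features tested were 23.3% higher and 22.4% lower. SLC7A1 (CAT-1), the main cellular importer of arginine in many cells, was at 107, 101 and 91.5 CPM in Huh7 P and at 52.7, 46.1 and 44.1 CPM in Huh7 LR (log2 fold change -1.07, SE 0.088, edgeR adjusted p = 5.04e-06). SLC7A7, the light chain of a basic amino acid exchanger, was at 69.8, 70.4 and 76.8 CPM in Huh7 P and at 123, 175 and 138 CPM in Huh7 LR (1.01, SE 0.11, edgeR adjusted p = 4.34e-05). Both passed the stricter limit, in opposite directions. SLC7A6, which pairs with the same heavy chain as SLC7A7, had 0.32 and lost its call without Huh7 P 1 or Huh7 P 3. Without Huh7 LR 1, 3 carriers were lower, SLC25A12 and SLC7A2 being added.

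All of the 8 enzymes that handle fumarate, adenylosuccinate or pyrimidine precursors were tested. Of these, 7 were lower, 0 were higher and 1 (MDH1) did not pass, with a median of -0.39. With all 6 libraries kept, 22.4% of all features tested were lower and 23.3% were higher, and the list was not tested against them. ADSS, adenylosuccinate synthase, which like ASS1 consumes aspartate, was at 74.3, 81.7 and 80.1 CPM in Huh7 P and at 32.5, 34.8 and 37.0 CPM in Huh7 LR (-1.18, SE 0.076, edgeR adjusted p = 1.10e-06) and passed the stricter limit. CAD had -0.71 (SE 0.079), FH, the fumarase that takes up the fumarate released by ASL, had -0.60 (SE 0.096), and UMPS, the last enzyme of uridine monophosphate synthesis, had -0.40 (SE 0.080). Without Huh7 P 2, 4 of the 8 were lower, and ADSL, DHODH and MDH2 were no longer called.

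Of 12 factors known to act on urea cycle genes, 11 were tested, 4 were higher, 2 were lower and 5 did not pass, with a median of 0.25. Among all features tested, 23.3% were higher and 22.4% were lower, and the list was not tested against them. CEBPA, a liver-enriched factor, was at 307, 313 and 306 CPM in Huh7 P and at 435, 486 and 463 CPM in Huh7 LR (0.58, SE 0.068, edgeR adjusted p = 5.55e-05). NR3C1, the glucocorticoid receptor, had 0.46 and ONECUT1 (HNF6) had 0.41. CREB1, which binds the cyclic AMP response element, had -0.38. FOXA3, the other gene that was lower (-0.20), lost its call under most alternatives. HNF4A was at 325 ± 19.7 CPM and 312 ± 32.8 CPM (SD, n = 3 each) and did not pass. GCGR, the glucagon receptor, was too low to test.

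**Figure D4:**
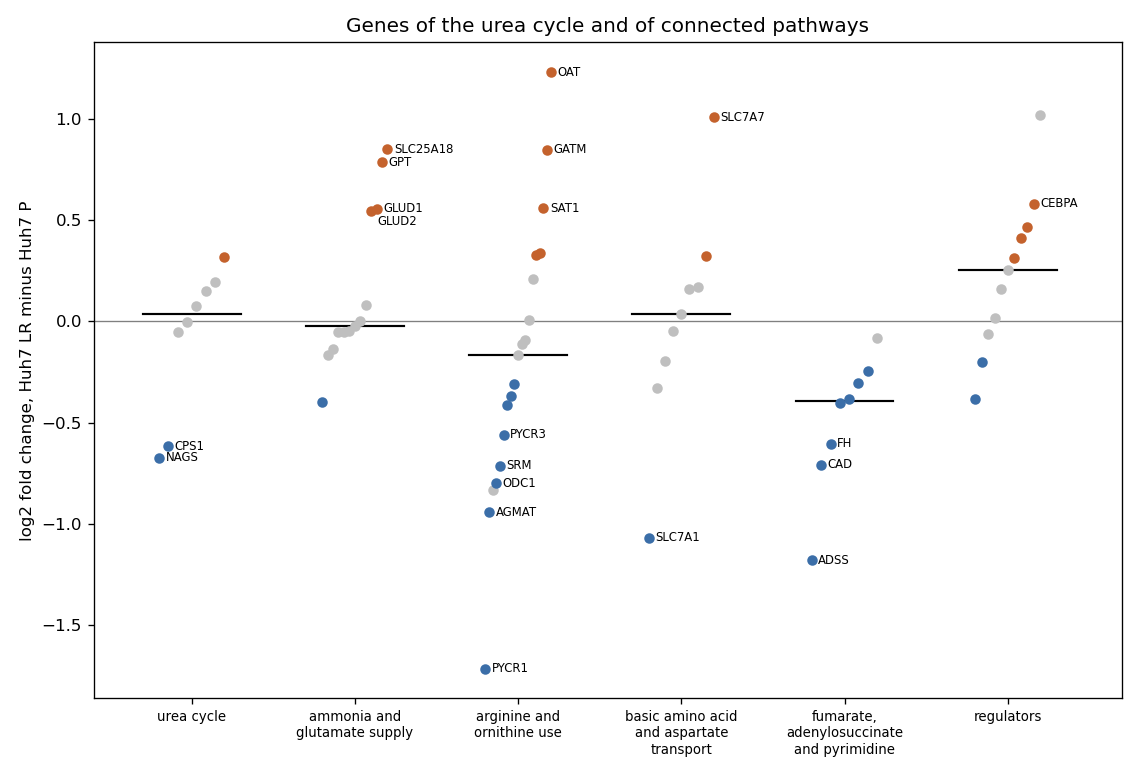
Log2 fold change (Huh7 LR minus Huh7 P, y axis) of each tested gene of the urea cycle and of 5 connected lists, 1 point per gene, with a black line at the median of the list. Orange is higher and blue lower at an adjusted p under 0.05, grey did not pass, and called genes beyond 0.5 in size are named. PYCR1 (-1.71), OAT (1.23), ADSS (-1.18), SLC7A1 (-1.07) and SLC7A7 (1.01) lie beyond 2-fold, while NAGS, CPS1 and ASL do not. The grey point at 1.02 is the regulator PPARGC1A, which was below 0.5 CPM in every library.

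The genes whose pattern over the 6 libraries lay closest to that of CPS1, by Euclidean distance of centred log2 CPM, were FRYL (distance 0.073, log2 fold change -0.63), UTP23 (0.080, -0.58) and METTL15 (0.087, -0.59). NAGS was not a candidate for that list because it is a member.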

How the data were processed

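Poly(A) RNA of 6 samples was sequenced by a company, with a kit that does not mark strand. The authors deposited 1 table with read counts and FPKM per gene and library. The submitters' processing notes name TopHat2, Cufflinks, DESeq and the mouse build mm10, but the identifiers are human, and the genome build used is not settled by the sources used here. Of 26218 lines, 34 naming no gene were left out, and 26184 (19974 genes, 6210 unannotated loci) were kept. The deposited counts were tested with edgeR 4.0.16 (quasi-likelihood, TMM, filterByExpr with minimum count 10 and total 15) and Benjamini-Hochberg adjustment over 17531 features, in R 4.3.3. CPM is scaled by TMM. Samples were grouped by title. Deposited FPKM values served for levels between genes, ratios (pseudocount 0.01) and limma 3.58.1. DESeq2 1.42.0 was an alternative, beside other filters, the replicate block and leaving out each library. Scripts were tested on simulated data. Positions are from GENCODE 29.

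The members and gene lists were chosen with earlier results of these data known. Named genes were all members and, from each list, every gene past the stricter limit, and below 4 of these the largest changes at adjusted p under 0.05, up to 4, and other listed genes were named after their values were seen. The deviations of same-numbered libraries correlated too weakly (each r under 0.1) to pair them, so no pairing was used. P-values measure the spread between samples of 1 culture line each. The periportal marker list is not reported here.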

Additional observations from a re-analysis of the deposited data

How the results depend on the processing

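CPS1 and NAGS stayed lower and ASL higher, all past the threshold, under each alternative. Outside the leave-one-out fits their log2 fold changes were -0.62 to -0.55, -0.68 to -0.55 and 0.31 to 0.33. Leaving out each library gave -0.68 to -0.50 for CPS1, -0.74 to -0.60 for NAGS and 0.25 to 0.40 for ASL. ASS1 ranged from 0.028 to 0.24 and passed without Huh7 LR 2, which took the members higher from 1 to 2. ARG2 ranged from -0.042 to 0.19, being reversed at -0.042 without Huh7 P 1 and at -0.011 without Huh7 LR 1. ARG1 ranged from 0.11, without Huh7 LR 3, to 0.25 and SLC25A15 from -0.094, without Huh7 P 3, to -0.021, without Huh7 P 1, neither passing. SLC25A13 crossed 0 with values near it: 0.0037 with no filter, 0.016 with at least 10 counts in every library, 0.026 and 0.025 by limma on FPKM, 0.0045 on annotated genes only, and -0.028 to 0.022 leaving out each library. With each library left out, the differences between the lines (Huh7 LR minus Huh7 P) in the log2 ratios ranged from -0.22 to 0.068 for ARG2 over ARG1, -0.33 to 0.014 for ASS1 over ASL and -0.018 to 0.27 for CPS1 over CAD, so these differences have no stable direction. The difference for SLC25A13 over SLC25A12 was 0.12 without Huh7 LR 2 and 0.60 without Huh7 LR 1. Ammonia genes lower were 2 by DESeq2 and 1 to 2 leaving out libraries. Carriers higher were 1 to 2 and lower 1 to 3, and fumarate and pyrimidine enzymes lower 4 to 7. Regulators lower were 1 with no filter, with at least 10 counts, with the replicate block and by limma, and 1 to 2 leaving out libraries. Features past 2-fold, 776 higher and 312 lower, were 268 and 84 by limma with pseudocount 1, 353 and 120 with pseudocount 0.1 and no filter, and 551 to 734 and 224 to 341 leaving out libraries. The cause was not tested.

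The same-number correlations of deviations were 0.057, 0.067 and 0.025, too small to pair the samples, although each library correlated best with its own number. The replicate block changed no member's call, and among the listed genes it removed that of FOXA3 and added that of AFP. Of 380 recomputed values, 343 stayed, meaning that a fold change kept its direction and side of the threshold, a ratio its direction, and a count came within 1.5 times. Another 22 counts moved further, 14 values reversed and 1 gained a call. Whether ASS1 passed depended on which library was left out, so its difference was not settled.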

Other observations

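Perivenous markers of the liver lobule gave no single direction. Of 10 perivenous markers, 9 were tested, 4 were higher and 2 (LGR5 and AXIN2) were lower, beside 23.3% and 22.4% of all features tested. AXIN2 lost its call by limma with no filter and without Huh7 P 2, Huh7 P 3 or Huh7 LR 3. RHBG, an ammonium transporter, was at 0.752, 0.648 and 0.550 CPM in Huh7 P and at 3.48, 2.65 and 3.47 CPM in Huh7 LR (2.29, SE 0.21, edgeR adjusted p = 1.06e-05). CYP3A4 had 7 to 8 reads in Huh7 P and 37 to 48 in Huh7 LR (2.52, SE 0.39, edgeR adjusted p = 3.42e-04). It was too low to be tested with at least 10 counts in every library or by limma with a filter, and kept its call by limma with no filter. CYP1A2 had 0 to 8 and 14 to 24 reads, and was likewise too low to be tested with at least 10 counts or by limma with a filter. Its call was lost by DESeq2, by edgeR with no filter, and on leaving out Huh7 P 1, Huh7 P 3 or any Huh7 LR library. OAT stands in this list too.

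Genes near the members on the chromosome were also measured. Within 2.5 Mb on each side, the median log2 fold change was 0.03 over 9 tested genes around CPS1, 0.0013 over 105 around NAGS and -0.11 over 19 around ASL. It was -0.56 over 8 around OTC, -0.04 over 67 around ASS1, 0.29 over 22 around ARG1, 0.17 over 25 around ARG2, -0.29 over 17 around SLC25A15 and 0.10 over 22 around SLC25A13.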
